A study of Homo sapiens with 10 samples.

Results

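Kasumi-1 cells carrying E2-2 were compared directly with Kasumi-1 cells carrying E2A, over every gene with 30 or more RNA reads in the 2 libraries together. This threshold kept 14066 of 50868 genes in the authors' count table. Of the others, 22661 had no read in either library and 14141 had 1 to 29 reads. Kasumi-1 is a human myeloblast line from an acute myeloid leukemia with an 8;21 translocation, which joins RUNX1 to RUNX1T1. The cells, at 4 to 5 passages per the labels, received HA-tagged E2-2, HA-tagged E2A, HA-tagged HEB or the empty retroviral vector MIGR1. The vector marks infected cells with GFP, and RNA was taken from sorted GFP-positive cells 4 days after infection. Each of the 4 groups is 1 RNA library from the same cell line, and all of them carry the translocation, the cells' own E proteins and the viral backbone.

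E proteins are basic helix-loop-helix factors that pair with each other and bind E boxes, short DNA motifs of the form CANNTG. TCF4 encodes E2-2, TCF3 encodes E2A and TCF12 encodes HEB, and ID proteins, which lack a DNA-binding region, pair with all of them and keep them off DNA. In normal blood formation E2A is known for its place in B and T lymphocyte development, and E2-2 for its place in plasmacytoid dendritic cells. In leukemia with the 8;21 translocation, E proteins are part of the complex that the fusion protein forms.

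The E2-2 library held 14816708 counted reads, the E2A library 17673090, the HEB library 16791922 and the vector library 15728974. Levels are given as reads or as CPM, reads per 1000000 after scaling by the trimmed mean of M values over the 4 libraries. Folds set E2-2 over E2A unless stated otherwise, and parentheses after a fold hold its 95% exact interval for counting error. No group has a second library, so differences describe these libraries and carry no test across cultures. The words higher and lower mark a called gene: a difference of 2-fold or more whose interval leaves out 1, among genes with the 30 reads named above. In bulk RNA, fewer cells that express a gene and less of its RNA per cell cannot be told apart.

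The myeloblast label was checked against markers of the line. MPO, the granule enzyme myeloperoxidase, had 170661 reads in E2-2, 232710 in E2A, 298092 in HEB and 231819 in vector. KIT, CD34, CD33, ANPEP and RUNX1T1 were also present in all 4 libraries, and none of these genes was called between E2-2 and E2A. CD38 was the exception among the markers, with 22 reads in E2-2, 11 in E2A, 22 in HEB and 13 in vector and a 2.33-fold (1.08 to 5.32) higher level in E2-2. Markers of other cells were mostly near 0. In all 4 libraries, 14 of 20 epithelial, fibroblast or packaging cell genes had 10 or fewer reads, as did 16 of 28 T and NK cell genes and 13 of 23 erythroid and megakaryocytic genes. Summed over its members, the epithelial, fibroblast and packaging list stood at 92.1 CPM in E2-2, 70.7 in E2A, 68.2 in HEB and 77.6 in vector. The T and NK list stood at 111 CPM in E2-2, 113 in E2A, 78.8 in HEB and 68.9 in vector, and the erythroid and megakaryocytic list at 952 CPM in E2-2, 901 in E2A, 1067 in HEB and 831 in vector. Most of the T and NK sum is CD4, with 1143 reads in E2-2 and 1504 in E2A. Most of the erythroid and megakaryocytic sum is TFRC, with 13336 reads in E2-2 and 15106 in E2A.

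Most genes stood at nearly the same level in the E2-2 and E2A libraries, and the genes that differed were more often higher in E2-2. Of 14066 genes, 511 were called higher in E2-2, or 3.63%, and 227 were called lower, or 1.61%, so 738 genes, or 5.25%, were called in either direction. The median log2 fold over all of them was -0.01, and from the 5th to the 95th percentile it ran from -0.62 to 0.84. Higher genes had a median fold of 2.75, with 127 at 4-fold or more and 39 at 8-fold or more. Lower genes had a median fold of 2.46, with 33 at 4-fold or more and 6 at 8-fold or more. Protein-coding genes were 407 of the 511 higher genes and 143 of the 227 lower ones.

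**Figure D1:**
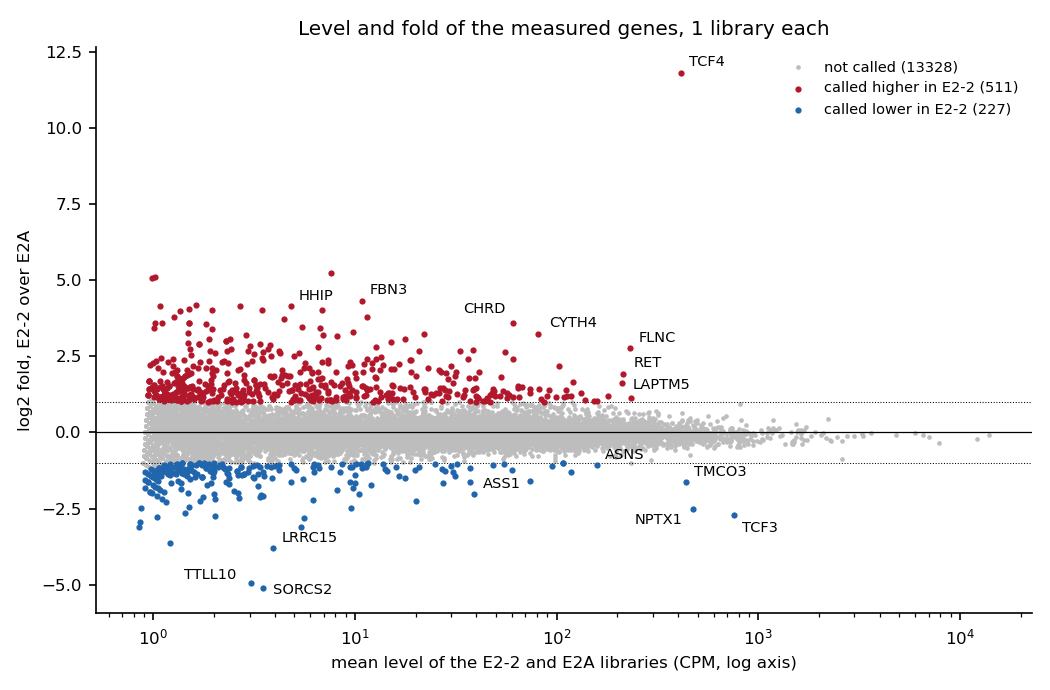
Each point is 1 measured gene, with its mean level in the E2-2 and E2A libraries in CPM on a log axis and its log2 fold, E2-2 over E2A. Red points are the 511 genes called higher, blue points the 227 called lower and gray points the rest, dotted lines mark 2-fold, and TCF4 and TCF3 are the transduced genes.

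Calls were most frequent among genes with few reads. Of 2626 genes with 30 to 99 reads in the 2 libraries, 8.87% were called higher and 5.33% lower. Of 5838 genes with 1000 to under 10000 reads, 1.15% were called higher and 0.274% lower, and of 503 genes with 10000 or more, 0.199% were called higher and 0.596% lower. At the read threshold, 84 genes with exactly 29 reads had log2 folds from -1.43 to 1.87, and 84 genes with exactly 30 reads had log2 folds from -3.10 to 5.08.

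The transduced genes came out as the labels say. TCF4 (chromosome 18, 55222331 to 55664787) had 12484 reads in E2-2, 4 in E2A, 1 in HEB and 4 in vector, a 3636-fold (1420 to 13348) higher level in E2-2. TCF3 (chromosome 19, 1609290 to 1652605) had 3039 reads in E2-2, 23186 in E2A, 4201 in HEB and 3934 in vector. It was thus 6.55-fold (6.30 to 6.80) lower in E2-2, where the cells' own TCF3 RNA was still present. TCF12, the gene of HEB, was at 145 CPM in E2-2 and 168 CPM in E2A and was not called. Transduced and resident copies of a factor are counted together.

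Among the ID genes, ID3 was called and ID1 and ID2 were not. ID3 had 1360 reads in E2-2, 709 in E2A, 241 in HEB and 41 in vector, and was 2.23-fold (2.04 to 2.45) higher in E2-2. ID2 was at 165 CPM in E2-2 and 135 CPM in E2A, and at 27.6 CPM in HEB and 16.4 CPM in vector. ID2 was thus close in the E2-2 and E2A libraries, at 1.22-fold (1.16 to 1.29), and stood above HEB and vector in both. ID1 was at 16.6 CPM in E2-2 and 28.1 CPM in E2A, 1.70-fold (1.46 to 1.99) lower and under the 2-fold rule. ID4 had 0 reads in all 4 libraries.

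Of 19 measured genes of the fusion protein's complex, 0 were called, against 5.25% of all measured genes, a share too small to set these few genes apart. Their median log2 fold was -0.14, against -0.01 for all measured genes. RUNX1 stood at a log2 fold of -0.29, the adaptor gene LMO2 at 0.01 and LYL1 at -0.14.

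After TCF4, the genes that stood out most were at or near 0 in vector cells, and several had more reads in E2A and HEB than in vector. CHRD (chromosome 3, 184380073 to 184390736) encodes chordin, a secreted antagonist of bone morphogenetic proteins. It had 1708 reads in E2-2, 164 in E2A, 37 in HEB and 2 in vector, a 12.1-fold (10.3 to 14.3) higher level in E2-2 than in E2A. HHIP, a membrane protein that binds hedgehog ligands, had 138 reads in E2-2, 9 in E2A, 11 in HEB and 1 in vector, or 17.9-fold (9.14 to 39.9) higher. FBN3, a fibrillin of the extracellular matrix, had 312 reads in E2-2, 18 in E2A, 43 in HEB and 0 in vector, or 20.2-fold (12.6 to 34.5) higher. In all 4 of these genes, TCF4 included, the E2-2 library was highest by a wide margin.

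Other genes at the top of the ranking also had their highest level in E2-2, and the order of the other 3 libraries varied. CYTH4, an exchange factor for ARF GTPases in blood cells, had 2230 reads in E2-2, 273 in E2A, 223 in HEB and 34 in vector, or 9.52-fold (8.39 to 10.8) higher. CRHR2, a receptor for corticotropin-releasing hormone family peptides, had 325 reads in E2-2, 27 in E2A, 18 in HEB and 8 in vector, or 14-fold (9.46 to 21.6) higher. C1orf127 had 226 reads in E2-2, 7 in E2A, 26 in HEB and 4 in vector, or 37.6-fold (18 to 94.6) higher. FRMD7, a FERM domain gene, had 41 reads in E2-2, 0 in E2A, 2 in HEB and 0 in vector. With the 0 set at 3 reads it was 15.9-fold higher, and the 95% lower limit for counting error was 12.4-fold. TEAD1, the DNA-binding partner of the YAP coactivator, had 31 reads in E2-2, 0 in E2A, 4 in HEB and 3 in vector, on the same floor 12-fold higher with a 95% lower limit of 9.22-fold. The remaining genes of the 15 were KRT80, AQP6, GOLGA6A, SEPT3, HAP1 and PRSS2, with folds from 9.45 for PRSS2 to 17.9 for KRT80. PRSS2 and GOLGA6A have near-identical copies in the genome, so their counts are uncertain.

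**Figure D2:**
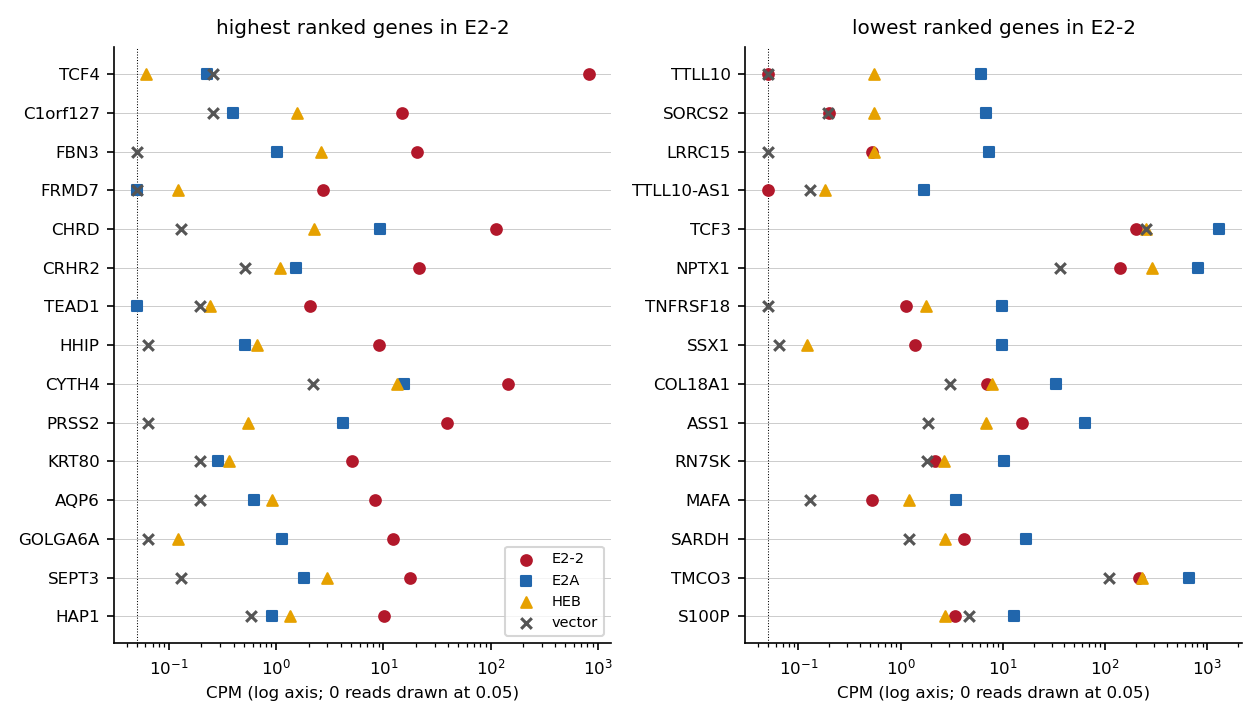
Levels in CPM on a log axis of the 15 highest and the 15 lowest ranked genes, 1 point per library, with 0 reads drawn at the dotted line at 0.05. E2-2 (red circles) lies rightmost in each row on the left and E2A (blue squares) rightmost in each row on the right, where E2-2 lies near HEB for TCF3, TMCO3, COL18A1 and LRRC15.

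Counted most often among the higher genes, besides TCF4, were FLNC, RET, TCFL5, LAPTM5 and PMAIP1. FLNC, an actin crosslinker of muscle, had 6110 reads in E2-2, 1047 in E2A, 2356 in HEB and 69 in vector, or 6.80-fold (6.37 to 7.27) higher. RET, the receptor tyrosine kinase for GDNF family ligands, had 5151 reads in E2-2, 1573 in E2A, 1729 in HEB and 903 in vector, or 3.82-fold (3.61 to 4.04) higher. LAPTM5, a lysosomal protein of blood cells, had 4846 reads in E2-2, 1836 in E2A, 1698 in HEB and 578 in vector, or 3.08-fold (2.91 to 3.25) higher. For FLNC, RET and LAPTM5 the vector library was lowest, and HEB stood near E2A except in FLNC, where HEB lay between E2-2 and E2A. TCFL5, itself a basic helix-loop-helix factor, was at 323 CPM in E2-2 and 146 CPM in E2A, 2.21-fold (2.11 to 2.32) higher. PMAIP1, the gene of the proapoptotic BCL2 family member NOXA, was at 250 CPM in E2-2 and 109 CPM in E2A, 2.30-fold (2.18 to 2.43) higher.

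Genes lower in E2-2 were fewer, and the 15 leading ones all had their highest level in the E2A library. NPTX1 (chromosome 17, 80467148 to 80477843), a pentraxin secreted at synapses, had 2113 reads in E2-2, 14233 in E2A, 4724 in HEB and 566 in vector, or 5.78-fold (5.52 to 6.05) lower in E2-2 than in E2A. SORCS2, a sortilin family receptor, had 3 reads in E2-2, 120 in E2A, 9 in HEB and 3 in vector, or 34.3-fold (11.5 to 169) lower. LRRC15, a leucine-rich repeat membrane protein, had 8 reads in E2-2, 130 in E2A, 9 in HEB and 0 in vector, or 13.9-fold (6.87 to 33.0) lower. TTLL10, a member of the tubulin tyrosine ligase-like family, had 0 reads in E2-2, 108 in E2A, 9 in HEB and 0 in vector. With the 0 set at 3 reads it was 30.9-fold lower, and the 95% lower limit of the fold for counting error was 24.7. For TTLL10 and SORCS2 the E2-2 library was at the vector level.

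Among the remaining genes were enzymes, a collagen and a receptor. ASS1, argininosuccinate synthase of arginine synthesis, had 233 reads in E2-2, 1112 in E2A, 113 in HEB and 29 in vector, or 4.10-fold (3.55 to 4.74) lower. SARDH, the mitochondrial sarcosine dehydrogenase, had 63 reads in E2-2, 297 in E2A, 45 in HEB and 19 in vector, or 4.05-fold (3.07 to 5.40) lower. COL18A1, a basement membrane collagen, had 105 reads in E2-2, 588 in E2A, 129 in HEB and 47 in vector, or 4.81-fold (3.90 to 5.97) lower. In these genes E2-2 lay between vector and E2A. TNFRSF18, the T cell costimulatory receptor GITR, had 17 reads in E2-2, 172 in E2A, 29 in HEB and 0 in vector, or 8.68-fold (5.27 to 15.3) lower. TMCO3, a transmembrane protein, had 3222 reads in E2-2, 11705 in E2A, 3759 in HEB and 1686 in vector, or 3.12-fold (3.00 to 3.24) lower. The other ranked genes were TTLL10-AS1, SSX1, RN7SK, MAFA and S100P, with S100P 3.73-fold (2.75 to 5.15) lower and SSX1 7.07-fold (4.48 to 11.7) lower. SSX1 belongs to a family of near-identical genes and TTLL10-AS1 overlaps TTLL10, so both are uncertain.

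ASNS, DCUN1D2 and PTRF were the other abundant genes on the lower side. ASNS, asparagine synthetase, had 1547 reads in E2-2, 3806 in E2A, 1912 in HEB and 2043 in vector, or 2.11-fold (1.99 to 2.24) lower. PTRF, the caveolar coat protein cavin-1, had 1082 reads in E2-2, 2546 in E2A, 3065 in HEB and 3805 in vector, or 2.02-fold (1.88 to 2.17) lower. ASNS was highest in E2A, whereas PTRF was highest in vector and lowest in E2-2.

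The HEB and vector libraries do not enter the fold of E2-2 over E2A, and they place the called genes on a common scale. Of the 511 genes higher in E2-2, vector lay below both E2-2 and E2A for 397, between them for 106 and above both for 8. Their median level was 6.07 CPM in E2-2, 1.70 in E2A, 1.63 in HEB and 1.03 in vector, and 48 of them had 0 reads in vector. Of the 227 genes lower in E2-2, vector lay below both for 47, between them for 95 and above both for 85. Their median level was 1.12 CPM in E2-2, 2.89 in E2A, 1.99 in HEB and 2.24 in vector. Over all measured genes, vector lay below both for 5398, between for 3085 and above both for 5583.

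HEB over vector shares no library with E2-2 over E2A. Of all 14066 genes, 2.4% were called higher in HEB than in vector and 0.967% were called lower. Among the genes higher in E2-2, 112, or 21.9%, were called higher in HEB than in vector and 4, or 0.783%, lower, and HEB stood above vector for 408 of 511. Among the genes lower in E2-2, 14, or 6.17%, were called higher in HEB and 26, or 11.5%, lower, and HEB stood above vector for 94 of 227. Over all measured genes HEB stood above vector for 7524 of 14066, or 53.5%. The median log2 fold of HEB over vector was 0.72 for the higher genes, -0.12 for the lower genes and 0.02 for all measured genes. With 1000 or more reads in E2-2 and E2A, HEB stood above vector for 64 of 68 higher genes, 7 of 19 lower genes and 3657 of all 6341 genes, or 57.7%.

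**Figure D3:**
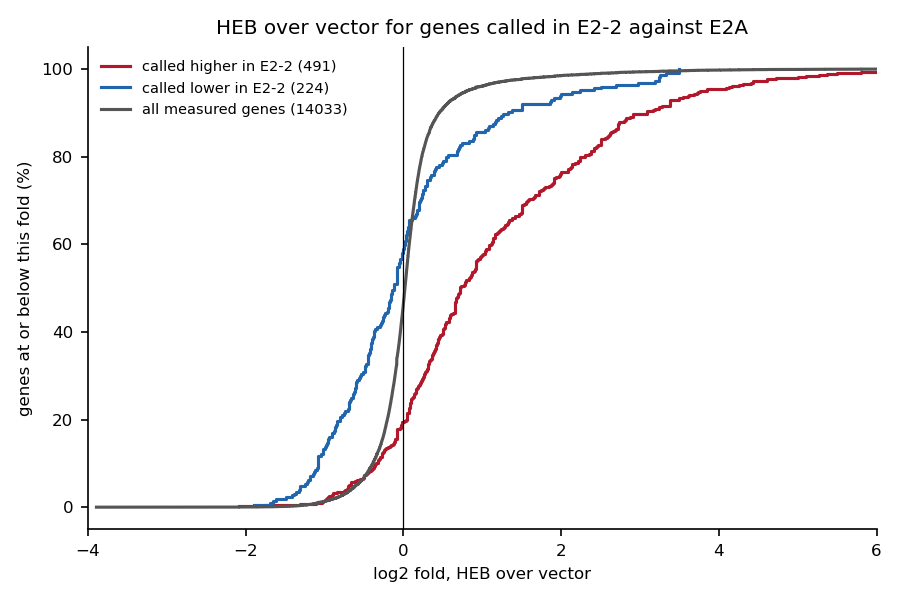
Share of genes at or below each log2 fold of HEB over vector, for genes called higher in E2-2 than in E2A (red, 491 genes), called lower (blue, 224) and all measured genes (gray, 14033), leaving out genes with 3 or fewer reads in both HEB and vector. The red curve lies to the right of the gray curve, with a median of 0.72, and the blue curve crosses the 50% line left of 0.

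The RefSeq windows from 250 bases before to 50 bases after the start site were read for E boxes, since CANNTG and its form CAGNTG are motifs that E proteins bind. Windows were found for 325 genes higher in E2-2, 125 lower genes and 10237 measured genes. On both strands (CANNTG is its own reverse complement, and CAGNTG was also read as CANCTG, a subset of it), CANNTG occurred in 66.8% of windows of higher genes, 61.6% of lower genes, 60.2% of measured genes and 69.0% of all 27305 RefSeq windows. CAGNTG occurred in 52.9% of windows of higher genes, 46.4% of lower genes, 43.3% of measured genes and 49.9% of all windows. CAGCTG, its symmetric form, occurred in 24.3% of windows of higher genes, 16.8% of lower genes, 16.8% of measured genes and 17.7% of all windows. CAGGTG, also read as CACCTG, occurred in 25.5% of windows of higher genes, 22.4% of lower genes, 18.4% of measured genes and 20.6% of all windows. Base composition differed between these groups, at 63.1% G and C for higher genes, 63.0% for lower genes, 64.5% for measured genes and 57.2% for all windows, and its part in the shares was not tested.

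The windows of 3 highly ranked genes on each side are printed to show what such a promoter holds. They are the highest ranked protein-coding genes whose window holds CAGNTG, chosen after their values were seen, with RefSeq sequence of GRCh38.p14 5′ to 3′ and each CANNTG in capitals. FRMD7 (chrX:132127971-132128270, minus strand), CRHR2 (chr7:30700054-30700353, minus strand) and PRSS2 (chr7:142770720-142771019, plus strand) were higher in E2-2. TTLL10 (chr1:1173630-1173929, plus strand), TNFRSF18 (chr1:1206543-1206842, minus strand) and SSX1 (chrX:48255142-48255441, plus strand) were lower.
FRMD7: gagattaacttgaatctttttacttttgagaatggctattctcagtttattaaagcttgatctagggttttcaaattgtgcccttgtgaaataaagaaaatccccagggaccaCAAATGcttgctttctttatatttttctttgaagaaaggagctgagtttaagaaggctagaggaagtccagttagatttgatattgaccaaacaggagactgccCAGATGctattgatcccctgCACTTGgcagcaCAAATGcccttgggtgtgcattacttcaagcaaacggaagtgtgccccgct
CRHR2: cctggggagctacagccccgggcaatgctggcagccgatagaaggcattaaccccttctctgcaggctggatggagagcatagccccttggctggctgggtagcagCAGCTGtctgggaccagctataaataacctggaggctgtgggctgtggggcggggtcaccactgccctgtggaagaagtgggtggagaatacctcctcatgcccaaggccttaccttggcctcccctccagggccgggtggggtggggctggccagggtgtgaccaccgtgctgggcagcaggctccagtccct
PRSS2: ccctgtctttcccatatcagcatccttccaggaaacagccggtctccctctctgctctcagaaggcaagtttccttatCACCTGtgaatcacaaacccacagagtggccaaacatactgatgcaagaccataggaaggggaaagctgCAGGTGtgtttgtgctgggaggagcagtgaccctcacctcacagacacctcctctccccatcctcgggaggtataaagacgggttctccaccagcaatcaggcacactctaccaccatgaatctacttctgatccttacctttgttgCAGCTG
TTLL10: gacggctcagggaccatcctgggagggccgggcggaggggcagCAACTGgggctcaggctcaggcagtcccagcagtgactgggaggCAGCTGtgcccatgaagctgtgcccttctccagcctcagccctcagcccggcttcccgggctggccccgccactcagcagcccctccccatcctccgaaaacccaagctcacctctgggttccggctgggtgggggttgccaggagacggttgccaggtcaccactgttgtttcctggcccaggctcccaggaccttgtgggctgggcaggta
TNFRSF18: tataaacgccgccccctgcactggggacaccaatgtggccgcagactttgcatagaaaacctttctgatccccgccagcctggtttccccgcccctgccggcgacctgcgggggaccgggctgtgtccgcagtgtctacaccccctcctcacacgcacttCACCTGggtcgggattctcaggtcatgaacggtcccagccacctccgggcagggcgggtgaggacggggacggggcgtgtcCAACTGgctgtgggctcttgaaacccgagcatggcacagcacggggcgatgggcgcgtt
SSX1: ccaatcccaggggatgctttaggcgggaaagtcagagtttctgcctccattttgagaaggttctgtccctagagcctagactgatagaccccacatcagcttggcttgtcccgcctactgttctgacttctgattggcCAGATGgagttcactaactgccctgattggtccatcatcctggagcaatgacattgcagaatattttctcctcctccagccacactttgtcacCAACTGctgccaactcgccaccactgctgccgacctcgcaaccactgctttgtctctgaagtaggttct
CRHR2 holds CAGCTG starting at -144 from the start site, and PRSS2 holds CAGGTG at -103 and CAGCTG at 45. On the lower side, TTLL10 holds CAGCTG at -163 and TNFRSF18 holds CACCTG at -90. All 6 windows were chosen for holding CAGNTG, so its presence in them is no result. A match is a string of letters in this window and not a measured binding site.

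The deposited pathway terms were then read for their share of called members. KEGG terms covered 4207 measured genes and GO terms 11647. Among 228 KEGG terms with at least 20 measured members, the highest shares called higher in E2-2 were in Hematopoietic cell lineage (9 of 39, 23.1%), Primary immunodeficiency (4 of 20, 20.0%), Hedgehog signaling (4 of 26, 15.4%), Notch signaling (6 of 39, 15.4%), Fructose and mannose metabolism (4 of 28, 14.3%) and Cytokine-cytokine receptor interaction (13 of 92, 14.1%). The highest shares called lower were in Glycine, serine and threonine metabolism (4 of 25, 16.0%), Inflammatory bowel disease (3 of 23, 13%) and Complement and coagulation cascades (3 of 31, 9.68%). Complement and coagulation cascades also had 4 of 31 members higher, and Inflammatory bowel disease 1 of 23, with median log2 folds of 0.00 and 0.01. Among GO terms, chemokine-mediated signaling had 4 of 23 members lower and 4 higher, and cysteine-type endopeptidase inhibitor activity had 4 of 23 lower and 0 higher, or 17.4% for each of these counts of 4. The higher chemokine-mediated members include the near-identical genes CCL4 and CCL4L2, which are not separate evidence. All measured genes stood at 3.63% higher and 1.61% lower. Terms share genes and were ranked on these calls, so the shares are descriptions.

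**Figure D4:**
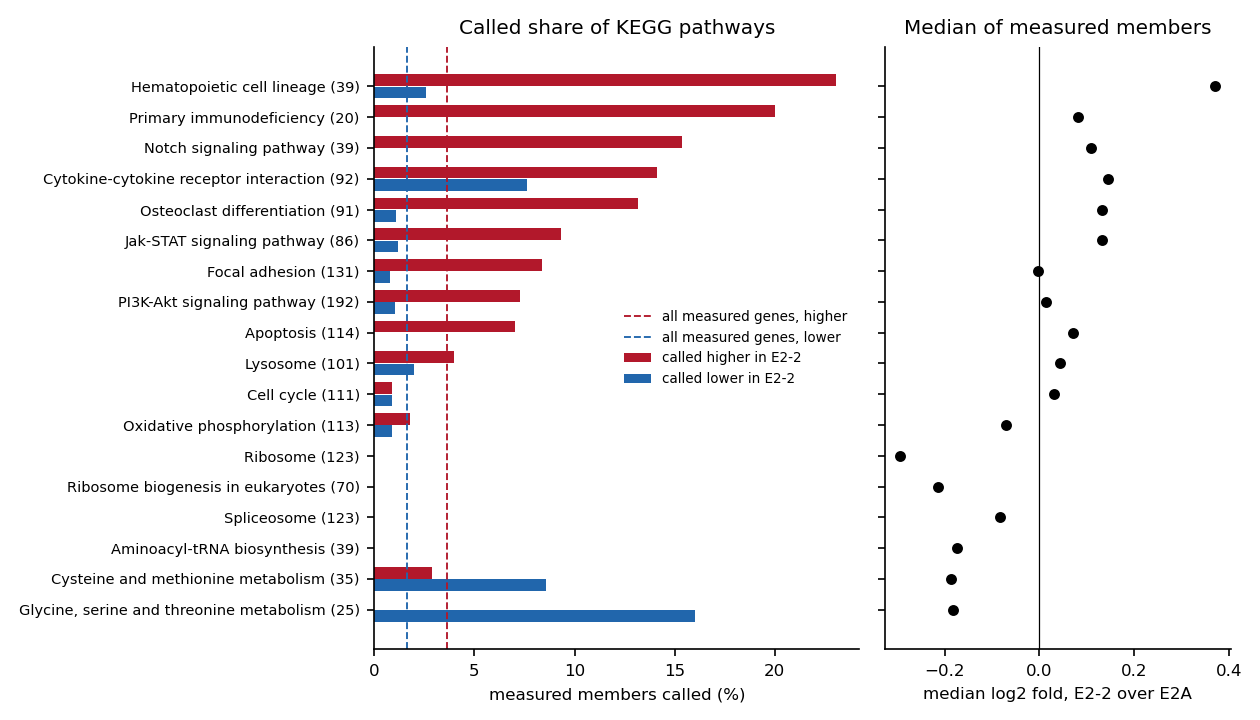
Left, share of measured members of 18 KEGG pathways called higher (red) and lower (blue) in E2-2 than in E2A, with the number of measured members in parentheses and dashed lines at 3.63% and 1.61% for all measured genes. Right, median log2 fold of the measured members, from 0.37 for Hematopoietic cell lineage to -0.29 for Ribosome.

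Receptors and ligands of blood cells led the higher side. Hematopoietic cell lineage had 9 members higher, 1 lower and a median log2 fold of 0.37, against -0.01 for all measured genes. CSF1R, which binds macrophage colony-stimulating factor, had 646 reads in E2-2, 191 in E2A, 113 in HEB and 23 in vector, or 3.94-fold (3.35 to 4.66) higher in E2-2. Its ligand gene CSF1 had 138 reads in E2-2, 37 in E2A, 46 in HEB and 39 in vector, or 4.35-fold (3.00 to 6.43) higher. IL6R, the interleukin 6 receptor, had 683 reads in E2-2, 204 in E2A, 214 in HEB and 135 in vector, or 3.90-fold (3.33 to 4.58) higher. CSF1R was ordered E2-2, E2A, HEB, vector from high to low, while CSF1 had similar read numbers in E2A, HEB and vector. IL7R, the interleukin 7 receptor of lymphocyte precursors, had 31 reads in E2-2, 2 in E2A, 5 in HEB and 1 in vector, or 18.1-fold (4.6 to 156) higher. Thrombopoietin (THPO), GP9, CD9, ITGA6 and CD38 were the other higher members, and CD22, a B cell lectin, was 2.67-fold (1.22 to 6.43) lower with 9 reads in E2-2 and 28 in E2A.

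Across a wider list of blood growth factor and interleukin receptors, 5 of 28 measured members were higher, 3 lower and 20 not called, with a median log2 fold of 0.41. The shares were 17.9% higher and 10.7% lower, against 3.63% and 1.61% of all measured genes. CSF2RB, the shared signalling chain of the interleukin 3, interleukin 5 and GM-CSF receptors, was at 44.7 CPM in E2-2 and 13.4 CPM in E2A, 3.35-fold (2.88 to 3.90) higher. Both subunits of the interleukin 18 receptor were among the lower members. IL18RAP had 276 reads in E2-2, 988 in E2A, 963 in HEB and 1784 in vector, or 3.07-fold (2.69 to 3.52) lower. IL18R1 had 137 reads in E2-2, 325 in E2A, 321 in HEB and 491 in vector, or 2.04-fold (1.66 to 2.50) lower. Vector was the highest library for IL18RAP and IL18R1, and E2-2 the lowest. THPO, the gene of the growth factor thrombopoietin, had 64 reads in E2-2 and 11 in E2A, 6.78-fold (3.55 to 14.3) higher. KIT, FLT3 and CSF3R were not called, with log2 folds of -0.30, 0.72 and -0.07.

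Chemokine and TNF family genes went both ways. Among 12 measured chemokine and chemokine receptor genes, 3 were higher and 2 lower, or 25% and 16.7%, against 3.63% and 1.61% of all measured genes. CCL4L2, a macrophage inflammatory protein gene that shares reads with near-identical CCL4, had 930 reads in E2-2, 205 in E2A, 474 in HEB and 43 in vector, or 5.29-fold (4.54 to 6.18) higher. CCL4 was also among the higher genes, with 28 reads in E2-2 and 6 in E2A, so CCL4 and CCL4L2 are not separate evidence. CXCR4, the receptor for the marrow retention signal CXCL12, had 374 reads in E2-2, 157 in E2A, 185 in HEB and 128 in vector, or 2.78-fold (2.30 to 3.37) higher. CCR1 had 6 reads in E2-2 and 27 in E2A, 3.86-fold (1.56 to 11.4) lower, and the neutrophil attractant CXCL1 had 21 reads in E2-2 and 54 in E2A, 2.21-fold (1.31 to 3.85) lower. Of 20 TNF family genes, TNFRSF19, TNFRSF14 and TNFSF10 (TRAIL, a ligand of death receptors) were higher and TNFRSF18 was lower. TNFSF10 had 287 reads in E2-2, 134 in E2A, 310 in HEB and 279 in vector, so that E2A was the library that stood apart.

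Over all measured genes 3.63% were higher and 1.61% lower. Of 11 measured monocyte and macrophage genes, 2 were higher and 0 lower (median log2 fold 0.68). LILRB2, an inhibitory receptor of myeloid cells, had 92 reads in E2-2, 17 in E2A, 4 in HEB and 1 in vector, or 6.31-fold (3.73 to 11.3) higher. Of 21 granulocyte genes, 4 were higher and 1 lower, with a median log2 fold of -0.03. CYBB, the catalytic subunit of the phagocyte NADPH oxidase, had 187 reads in E2-2, 42 in E2A, 15 in HEB and 13 in vector, or 5.19-fold (3.70 to 7.43) higher. NCF1, a cytosolic subunit of the same oxidase, had 2374 reads in E2-2, 1206 in E2A, 792 in HEB and 169 in vector, or 2.29-fold (2.14 to 2.46) higher, and has near-identical pseudogenes. Azurophil granule genes went both ways. BPI, a bactericidal protein of these granules, had 102 reads in E2-2, 55 in E2A, 106 in HEB and 52 in vector, or 2.16-fold (1.54 to 3.06) higher. CTSG, cathepsin G, had 62 reads in E2-2 and 161 in E2A and was 2.23-fold (1.65 to 3.04) lower, and ELANE, PRTN3 and AZU1 were not called, at log2 folds of -0.39, -0.23 and -0.43. Other myeloid lists also held lower genes. Of 7 conventional dendritic cell genes, 1 was higher and 2 were lower, and of 8 mast cell and basophil genes, 0 were higher and 2 lower. The integrin gene ITGAX had 38 reads in E2-2 and 105 in E2A, or 2.37-fold (1.62 to 3.53) lower.

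Lymphocyte genes reported as E protein targets were the list with the largest share of calls among those with 10 or more measured members. Of its 25 genes, 16 were measured. Of these 16, 9, or 56.25%, were higher in E2-2 and 0 lower, against 3.63% and 1.61% of all measured genes. The median log2 fold of the list was 1.13, against -0.01 for all measured genes. RAG1, a recombinase of antigen receptor genes, had 104 reads in E2-2, 33 in E2A, 29 in HEB and 12 in vector, or 3.67-fold (2.46 to 5.61) higher. BTG2, an antiproliferative gene, had 267 reads in E2-2, 78 in E2A, 51 in HEB and 22 in vector, or 3.99-fold (3.09 to 5.20) higher. PRDM1, the plasma cell factor BLIMP-1, had 563 reads in E2-2, 264 in E2A, 146 in HEB and 2 in vector, or 2.48-fold (2.14 to 2.89) higher. For RAG1, BTG2 and PRDM1, all 3 E protein libraries stood above vector, with E2-2 highest. PAX5, CD79A, CDKN1A, IL7R, NOTCH3 and HES1 were the other higher members. IGLL1, a surrogate light chain gene, went the other way without being called, at a log2 fold of -0.62, and GFI1 stood at -0.35 and IKZF1 at 0.25. With at least 10 reads in place of 30, the median of the list was 0.69. IL7R, with 31 reads in E2-2 and 2 in E2A, passed the 30 reads only through E2-2. A read minimum over the 2 libraries together thus favors genes that differ, which limits the share. Summed over its measured members, the list stood at 1235 CPM in E2-2 and 1260 CPM in E2A. IL7R, NOTCH3 and HES1 are also in the T and NK list and are its 3 higher members. The summed T and NK markers stood at 111 CPM in E2-2 and 113 CPM in E2A, with 16 of 28 at 10 or fewer reads in all 4 libraries, and their part in the result was not tested. Most of that sum is CD4, with 1143 reads in E2-2 and 1504 in E2A, so it says little about the other members.

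For plasmacytoid dendritic cells, 4 of 21 measured genes, or 19.0%, were higher and 0 lower, against 3.63% and 1.61% of all measured genes. Of these 4 genes, 1 is the transduced TCF4 itself. The others were IRF4, IRF7 and SERPINF1. IRF7, a driver of type I interferon production, had 931 reads in E2-2, 311 in E2A, 300 in HEB and 117 in vector, or 3.49-fold (3.06 to 3.98) higher. IRF4, a lymphoid and dendritic cell factor, had 90 reads in E2-2, 29 in E2A, 36 in HEB and 33 in vector, or 3.62-fold (2.36 to 5.70) higher. The remaining 17 were not called: BCL11A stood at a log2 fold of 0.37, MZB1 at 0.20, RUNX2 at 0.14 and TNFRSF21 at 0.85.

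Interferon-stimulated genes were higher in E2-2 in part. Of 40 measured members, 11 were higher, 1 was lower and 28 were not called, and the median log2 fold was 0.64. The shares were 27.5% higher and 2.5% lower, against 3.63% and 1.61% of all measured genes. MX1, an antiviral GTPase, had 91 reads in E2-2, 14 in E2A, 8 in HEB and 3 in vector, or 7.57-fold (4.29 to 14.4) higher. RSAD2, the antiviral enzyme viperin, had 245 reads in E2-2, 99 in E2A, 19 in HEB and 27 in vector, or 2.88-fold (2.27 to 3.68) higher. CMPK2, its neighbor on chromosome 2, had 745 reads in E2-2, 240 in E2A, 128 in HEB and 92 in vector, or 3.62-fold (3.12 to 4.20) higher. The IFIT family did not move as one, with IFIT5 2.55-fold (1.75 to 3.77) higher and IFIT1, IFIT2 and IFIT3 at log2 folds of -0.01, 0.13 and 0.28. The lower member was LGALS3BP, with 15 reads in E2-2 and 36 in E2A. Of the 59 measured genes of the GO term for type I interferon signaling, 10, or 16.9%, were higher and 0 lower. MHC class I presentation genes had 0 of 18 called, against 5.25% of all measured genes, too few genes to set them apart.

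Calls among Notch genes included ligands, a receptor, a modifying enzyme and a target, and most members were not called. Of 23 measured members of the list, 6 were higher, 0 lower and 17 not called, with a median log2 fold of 0.15. The share called higher was 26.1%, against 3.63% of all measured genes, of which 1.61% were lower. DLL4, a ligand, had 173 reads in E2-2, 40 in E2A, 73 in HEB and 2 in vector, or 5.04-fold (3.56 to 7.30) higher. JAG2, another ligand, had 284 reads in E2-2, 117 in E2A, 115 in HEB and 24 in vector, or 2.83-fold (2.27 to 3.54) higher. LFNG, a fringe enzyme that adds sugars to Notch receptors, had 239 reads in E2-2, 56 in E2A, 77 in HEB and 11 in vector, or 4.97-fold (3.70 to 6.78) higher. In DLL4, JAG2 and LFNG the E2-2 library was highest and vector lowest. DTX4, a ubiquitin ligase of the Deltex family, was 4.16-fold (3.29 to 5.31) higher. The receptor gene NOTCH3 had 92 reads in E2-2, 30 in E2A, 42 in HEB and 58 in vector, or 3.57-fold (2.34 to 5.59) higher, so here vector lay between E2-2 and E2A. The target gene HES1 had 103 reads in E2-2, 47 in E2A, 35 in HEB and 19 in vector, or 2.55-fold (1.79 to 3.69) higher. NOTCH1, the receptor with the most reads, had 1738 in E2-2 and 1825 in E2A, a log2 fold of 0.15, and the feedback gene NRARP stood at -0.54.

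Immediate early genes of the AP-1 and NR4A families were among the higher genes, 5 of 17 measured members with 0 lower (median log2 fold 0.58). The share called higher was 29.4%, against 3.63% of all measured genes, of which 1.61% were lower. JUN had 1885 reads in E2-2, 963 in E2A, 820 in HEB and 747 in vector, or 2.28-fold (2.11 to 2.47) higher. FOS had 111 reads in E2-2, 36 in E2A, 49 in HEB and 75 in vector, or 3.59-fold (2.45 to 5.39) higher, and FOSB had 190 reads in E2-2, 77 in E2A, 75 in HEB and 136 in vector, or 2.87-fold (2.2 to 3.80) higher. JUN was highest in E2-2 with the other 3 libraries close together, while for FOS and FOSB vector stood above E2A. NR4A3 had 24 reads in E2-2, 6 in E2A, 5 in HEB and 4 in vector, or 4.66-fold (1.86 to 13.9) higher. It reached the read minimum only through E2-2, which limits the share of 29.4%. EGR1, JUNB and FOSL2 were not called, at log2 folds of -0.13, -0.13 and -0.08.

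Of 29 measured CDK inhibitors and p53 targets, 3, or 10.3%, were higher and 0 lower, against 3.63% and 1.61% of all measured genes: BTG2, TP53INP1 and CDKN1A. CDKN1A, the inhibitor p21, had 1176 reads in E2-2, 629 in E2A, 597 in HEB and 363 in vector, or 2.18-fold (1.98 to 2.40) higher. Of 23 BCL2 family and death regulator genes, PMAIP1 and TNFSF10 were higher, or 8.70%, and 0 lower. Of 18 genes of the D cyclins, G1 kinases and G1/S transition, 0 were called, against 5.25% of all measured genes, a share too small to set these few genes apart. CCND2 and CCND3 lay under the rule, at 1.55-fold (1.48 to 1.62) and 1.55-fold (1.49 to 1.61) higher. Of 30 mitosis and spindle genes, 0 were called either way, and their log2 folds ran from 0.02 for CDC20 to 0.49 for NDC80, with a median of 0.23. The lowest of these lies within the shift that another scaling brings, which moved the median of all genes by -0.03 to 0.03. DNA replication genes had 0 of 31 called and a median of 0.04. Beside the 5.25% of all measured genes, 0 calls do not set lists of 30 or 31 genes apart.

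Growth and translation genes leaned to the E2A side without being called. Of 35 measured MYC network and ribosome biogenesis genes, 0 were called and 29 lay below 0, with a median log2 fold of -0.33. MYC itself was at 142 CPM in E2-2 and 250 CPM in E2A, 1.77-fold (1.68 to 1.86) lower and under the 2-fold rule. The KEGG term Ribosome had 0 of 123 members called and a median of -0.29, and Ribosome biogenesis had 0 of 70 called and a median of -0.21. Mitochondrially encoded genes had 0 of 15 called with a median of -0.08, and 20 housekeeping genes had 0 called with a median of -0.04. Of all measured genes 5.25% were called, so 0 calls do not set apart lists of 15, 20 or 35 genes.

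Some enzymes of amino acid metabolism were lower in E2-2, and MAT1A was higher. In Glycine, serine and threonine metabolism, 4 of 25 members, or 16.0%, were lower and 0 higher: SARDH, CBS, CBSL and SDSL. Of all measured genes, 1.61% were lower and 3.63% higher. In Cysteine and methionine metabolism, 3 of 35 members, CBS, CBSL and SDSL, were lower and 1, MAT1A, was higher. CBS, cystathionine beta-synthase of the transsulfuration pathway, had 101 reads in E2-2, 264 in E2A, 164 in HEB and 157 in vector, or 2.24-fold (1.78 to 2.85) lower. CBSL is a near-identical copy of CBS, so the 2 genes are not separate evidence and their counts are uncertain. SDSL, a serine dehydratase-like enzyme, had 10 reads in E2-2 and 37 in E2A, 3.18-fold (1.55 to 7.16) lower. PHGDH, the enzyme that opens serine synthesis, had 2368 reads in E2-2, 5504 in E2A, 2526 in HEB and 2234 in vector, at 1.99-fold (1.90 to 2.09) lower just outside the rule. For PHGDH and ASNS the E2A library stood above the other 3, which were close together. Within a list of 25 amino acid synthesis and tRNA charging genes, ASNS was the only call and the median log2 fold was -0.17. With upper quartile scaling 2 members of that list were called lower.

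By cell compartment, calls were more frequent among membrane and secreted products than among nuclear ones. Of 2404 measured plasma membrane genes, 161, or 6.70%, were higher and 52, or 2.16%, lower. Extracellular space genes had 54 of 530, or 10.2%, higher and 21, or 3.96%, lower. The wider term extracellular region had 125 of 2434, or 5.14%, higher and 52, or 2.14%, lower. Cytosol genes had 92 of 2571, or 3.58%, higher and 20, or 0.778%, lower. Over all measured genes 3.63% were higher and 1.61% lower. Nucleus genes had 108 of 5136, or 2.1%, higher and 34, or 0.662%, lower, and nucleolus genes 2 of 736 higher and 1 lower. Membrane and secreted genes also had fewer reads than the 852.5 of nucleus, as a median in E2A. Plasma membrane stood at 459.5, extracellular space at 356.5 and extracellular region at 675.5. The part of read depth in these shares was not tested.

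Some called genes lay next to each other. Runs of at least 3 neighboring measured genes with the same call numbered 11 on the higher side, with 33 genes and none longer than 3. The lower side held 4 runs, with 15 genes. How many such runs would arise if calls fell at random was not tested. Among the higher runs, CPB2-AS1 overlaps CPB2, ZDHHC22 lies within TMEM63C and CMPK2 overlaps RSAD2. Among the lower runs, DBH-AS1 lies within DBH and TTLL10-AS1 overlaps TTLL10. The use of strand is not known, so overlapping genes may share reads and need not be separate evidence. The longest run was on chromosome 13, where 6 neighbors, ADPRHL1, DCUN1D2, DCUN1D2-AS, TMCO3, RP11-230F18.6 and RP11-230F18.5, were all lower in E2-2. DCUN1D2, a gene of the neddylation machinery, had 1034 reads in E2-2, 2960 in E2A, 1244 in HEB and 832 in vector, or 2.46-fold (2.29 to 2.64) lower. ADPRHL1 had 47 reads in E2-2, 122 in E2A, 80 in HEB and 72 in vector, or 2.23-fold (1.58 to 3.19) lower. In all 3 protein-coding genes of the run E2A was the highest library. DCUN1D2-AS lies within DCUN1D2 and both RP11 genes lie within TMCO3, and no source used here says whether counting used the strand, so their reads cannot be told apart from those of the genes around them. The nearest measured genes on either side were not called: TFDP1 stood at a log2 fold of -0.02 and GRTP1-AS1 at -0.52.

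**Figure D5:**
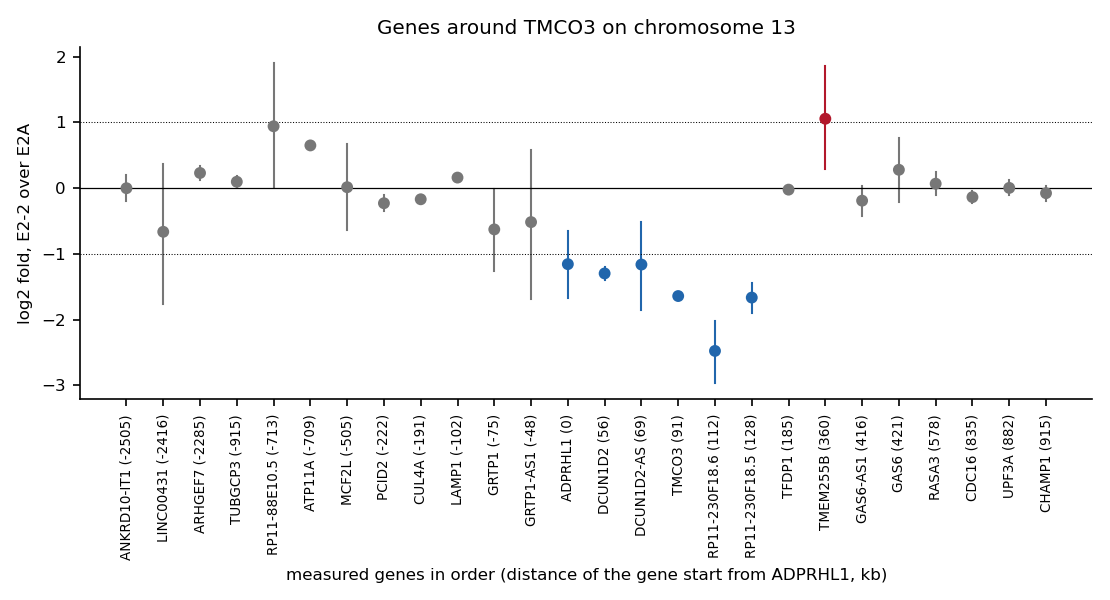
Log2 fold, E2-2 over E2A, of neighboring measured genes around TMCO3 on chromosome 13, in gene order, with lines for 95% counting intervals and the distance of each gene start from that of ADPRHL1 in kb. The 6 blue genes are the run called lower, the red gene TMEM255B was called higher, gray genes were not called, and dotted lines mark 2-fold.

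The other lower runs were TTLL10-AS1, TTLL10 and TNFRSF18 on chromosome 1, DBH, DBH-AS1 and SARDH on chromosome 9, and AC141928.1, ADRA2C and FAM86EP on chromosome 4. DBH, which makes noradrenaline from dopamine, had 20 reads in E2-2, 60 in E2A, 20 in HEB and 5 in vector, or 2.57-fold (1.53 to 4.51) lower, and stood beside SARDH with the same order of libraries. On the higher side, CAPN5, MYO7A and GDPD4 formed a run on chromosome 11. MYO7A, an unconventional myosin, had 1458 reads in E2-2, 272 in E2A, 161 in HEB and 13 in vector, or 6.25-fold (5.48 to 7.13) higher. MYBPH, CHI3L1 and BTG2 formed another on chromosome 1, with MYBPH, a myosin-binding protein of muscle, at 384 reads in E2-2, 106 in E2A, 178 in HEB and 0 in vector, or 4.22-fold (3.40 to 5.28) higher.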

How the data were processed

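RNA-seq of 4 libraries was used, 1 each for E2-2, E2A, HEB and vector, and 6 ChIP-seq and input samples were not used here. The authors deposited whole-number read counts and FPKM values per gene, per the file headers. Libraries came from TRIzol RNA and a TruSeq kit, run on an Illumina HiSeq2500, per the labels' protocols. Tools named in the submitters' processing notes are HTSeq 0.9.1, TopHat2 2.0.9, MACS2 2.1.1.20160309 and Bowtie2 2.2.9, with builds hg19 and hg38. The role of each build, the annotation and the use of strand were not given in the sources used here. Of 34962 genes matched by symbol to RefSeq GRCh38.p14, 34871 overlapped the RefSeq position.

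Counts were scaled with edgeR 4.0.16 (TMM) in R 4.3.3, with Python 3.11.15, scipy 1.17.1 and pandas 2.3.3 for the rest. Intervals are exact conditional binomial (Clopper-Pearson) at 95% and cover counting error only, because each group is 1 library. Where reads are copies of 1 molecule, the intervals are too narrow even for counting error. A count of 0 was set to 3 reads per library, so the size of such a fold depends on this setting, and its 95% limit for counting error is given beside it. The call rule was also run on simulated counts that varied by counting error only, the error the intervals assume. That run holds no spread between cultures and cannot speak to it. Library totals ran from 14816708 to 17673090 reads.

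Named are the factor and ID genes, the 15 highest and 15 lowest called genes by the interval bound nearest to 1 (clone identifiers and pseudogenes passed over), the 6 most counted called genes in each direction and up to 4 called members in each direction of each of 37 lists. Results for 3 genes are not reported here. Further members of pathway terms, uncalled examples and neighboring genes were named after their values were seen. The rule, lists and 93 fixed terms were chosen with earlier results of these data known. Alternatives were 4 other scalings, DESeq2 1.42.0 size factors among them, other read minimums, folds and floors, FPKM with pseudocounts of 0.1 and 1, and protein-coding genes alone.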

Additional observations from a re-analysis of the deposited data

Results flagged for a closer look

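MMRN1, the gene of the platelet protein multimerin 1, stood on opposite sides of vector in the 2 libraries. It had 43 reads in E2-2, 10 in E2A, 13 in HEB and 20 in vector. It was 5.01-fold (2.48 to 11.2) higher in E2-2 than in E2A. Against vector it was 2.21-fold (1.27 to 3.97) higher in E2-2 and 2.27-fold (1.01 to 5.42) lower in E2A. The 2 comparisons share the vector library, and the difference between them was not tested.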

How the results depend on the processing

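No paired analysis was possible because each group is 1 library and the labels give no replicate numbers, and for the same reason no library could be left out. Under the scalings (library totals, TMM over 2 libraries, DESeq2, upper quartile) and with a floor of 1 read, the counts ran from 486 to 545 higher and from 210 to 253 lower. With at least 10 reads there were 344 lower genes, with at least 100 reads 278 higher and 87 lower, and with no minimum 767 and 367. A fold of at least 1.5 gave 972 and 584, and a fold of at least 3 gave 208 and 65. FPKM with a pseudocount of 0.1 gave 136 lower genes and with a pseudocount of 1 it gave 139 higher and 32 lower; a pseudocount pulls low genes toward no difference. Among protein-coding genes alone 143 were lower. More calls at lower thresholds follow from how the rules are built. The median log2 fold of HEB over vector for higher genes was 1.03 with at least 100 reads, 0.46 at a fold of 1.5 and 1.5 at a fold of 3. For lower genes it was 0.20 at a fold of 3, on the other side of 0 from the main value of -0.12, and the cause was not tested. Set against the promoters of measured genes in place of all RefSeq promoters, the difference in share turned to 6.53 percentage points for CANNTG in higher genes, 1.36 for CANNTG in lower genes and 3.10 for CAGNTG in lower genes, and was 9.62 for CAGNTG in higher genes. Of the counts in lists 116 moved and 846 did not, of the list medians 42 moved and 438 did not, and of the named gene values 95 moved and 675 did not. The median of the mitochondrially encoded list had no value among protein-coding genes alone. Depth limits genes near 30 reads, where an interval often spans several fold.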

Other observations

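In the GO term for hormone activity, 6 of 24 measured members were higher and 1 lower, or 25% and 4.17%, against 3.63% and 1.61% of all measured genes. The median member had only 64.5 reads in E2A. Calls were more frequent among genes with few reads, and the part of read depth was not tested. FAM132B, the gene of erythroferrone, a hormone that acts on iron supply, had 544 reads in E2-2, 99 in E2A, 78 in HEB and 11 in vector, or 6.40-fold (5.16 to 8.01) higher in E2-2 than in E2A. APLN, a ligand for the apelin receptor, had 61 reads in E2-2, 11 in E2A, 12 in HEB and 7 in vector, or 6.46-fold (3.37 to 13.6) higher. STC2, the gene of stanniocalcin 2, was the lower member, with 107 reads in E2-2, 274 in E2A, 364 in HEB and 280 in vector, or 2.2-fold (1.75 to 2.77) lower. E2-2 was thus the library that stood apart for STC2.

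Of 49 measured genes for homophilic cell adhesion, 7 were higher in E2-2 and 1 lower, or 14.3% and 2.04%, against 3.63% and 1.61% of all measured genes. These genes also had few reads, with a median of 117 in E2A, and the part of read depth was not tested. CDH3, P-cadherin, had 1259 reads in E2-2, 416 in E2A, 446 in HEB and 26 in vector, or 3.53-fold (3.15 to 3.95) higher. CELSR3, a seven-pass cadherin of planar polarity, was the lower member, with 924 reads in E2-2, 2290 in E2A, 1878 in HEB and 2006 in vector, or 2.13-fold (1.97 to 2.30) lower. In Hedgehog signaling, the 4 higher members were HHIP and the Wnt ligand genes WNT3, WNT9A and WNT7B. WNT3 had 418 reads in E2-2, 195 in E2A, 166 in HEB and 158 in vector, or 2.50-fold (2.1 to 2.98) higher.

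H19, an imprinted non-coding RNA, had 482 reads in E2-2, 67 in E2A, 19 in HEB and 1 in vector, or 8.38-fold (6.48 to 11) higher. KRT17, a keratin with near-identical copies, had 478 reads in E2-2, 107 in E2A, 120 in HEB and 1 in vector, or 5.20-fold (4.21 to 6.48) higher. It was the called member of the epithelial, fibroblast and packaging list, in which 14 of 20 genes had 10 or fewer reads in all 4 libraries and EPCAM had 622 reads in E2-2, 854 in E2A, 675 in HEB and 871 in vector. The part of other cells in the KRT17 result was not tested.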
